A study of Bos taurus with 10 samples.

Results

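Transcripts of the mitochondrial genome were followed in longissimus muscle, which runs along the spine, in 10 steers. The members are the rows of the deposited count table whose Ensembl cattle identifiers run from ENSBTAG00000043544 to ENSBTAG00000043584, the block of identifiers taken for the mitochondrial genome. Of the 41 numbers in this block 31 had a row, out of 16963 rows in the table, and these 31 are called the members. The other 10 numbers were not analysed here. The rule for choosing the members used only identifiers and no measured value, but the choice was made with earlier results of these data known.

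All animals were male Angus x Simmental crosses, sampled at 385 ± 5 days of age. The 5 animals of the DDGS group were born to cows fed dried distillers grains and solubles while lactating. The 5 of the SBM group were born to cows on the control diet of the same period. The labels name neither the steers' own diet nor their sires, sampling days or sequencing batches, and each library came from 1 animal. Depth ran from 16942156 to 24936741 counts per library.

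The mitochondrial genome is a small circular DNA present in many copies per cell. It is transcribed from both strands as long precursors, which are cut into ribosomal RNAs, transfer RNAs and messenger RNAs. The messenger RNAs encode core subunits of the respiratory chain and of ATP synthase, the enzymes that supply most ATP in oxidative muscle fibres. The ribosomal and transfer RNAs serve the separate translation machinery inside the organelle. Mitochondrial transcripts are known to be plentiful in skeletal muscle.

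Identities within the block were known for 1 member only. The rule gives ENSBTAG00000043561 as COX1, the catalytic subunit of cytochrome c oxidase. The deposited table names no gene, and the RefSeq gene list of the ARS-UCD2.0 assembly pairs none of its entries with an Ensembl identifier, so the other members are given by identifier. That list holds 37 mitochondrial genes, namely 13 protein-coding, 2 rRNA and 22 tRNA genes. The 41 numbers therefore exceed it by 4, and some of them may name something else. Muscle markers could not be looked up for the same reason, so the tissue label was not checked. Lengths of the members were not available here either. Every comparison between members below is one of read counts, not of transcript numbers per length.

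The block took 37.5 ± 3.1% of all counts (SD, n = 10). In DDGS replicates 1 to 5 the share was 35.7, 35.6, 33.6, 35.1 and 39.0%. In SBM replicates 1 to 5 it was 36.0, 44.3, 40.1, 38.0 and 38.0%. SBM replicate 2 was the highest and DDGS replicate 3 the lowest, and the groups overlapped, since DDGS replicate 5 lay above 3 of the SBM animals. The other 4 DDGS animals lay below the lowest SBM animal, by a narrow margin in DDGS replicate 1. The share averaged 35.8 ± 2.0% in DDGS and 39.3 ± 3.2% in SBM animals (SD, n = 5 each), a difference of -3.45 percentage points. That difference was larger than the SD within each group, and no test was made on this sum of members. Without SBM replicate 2 it was -2.20 points. Counting error is no limit here: the 95% Wilson interval for SBM replicate 2, for example, was 44.233 to 44.277%, and such intervals cover counting error only.

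**Figure D1:**
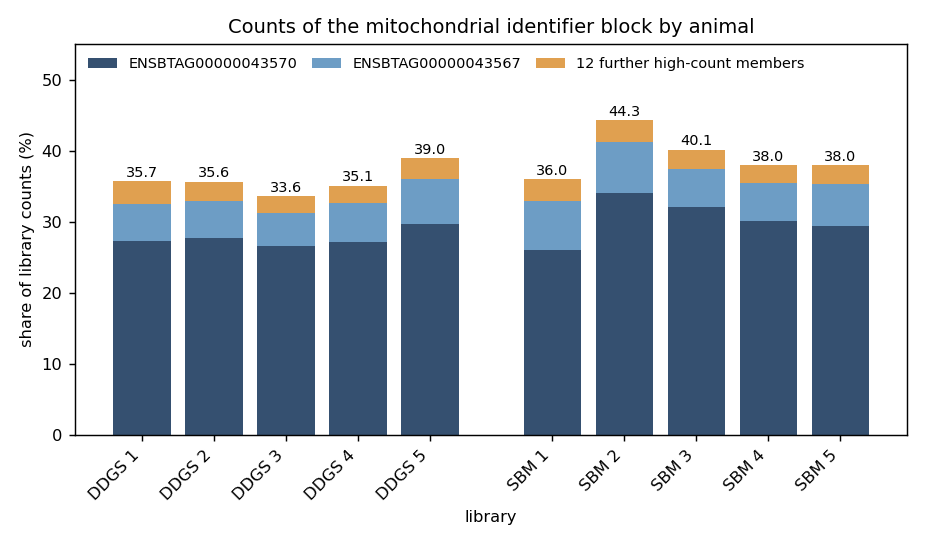
Stacked bars give the percentage of library counts (y axis) that fell on the mitochondrial identifier block in each of the 10 libraries (x axis), split into the most abundant member, the second and 12 further members; the 17 low-count members are too few to see. The number above a bar is the share of the whole block, from 33.6% in DDGS replicate 3 to 44.3% in SBM replicate 2.

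Other library measures moved with this share. The most abundant row outside the block, ENSBTAG00000026986, took 21.6 to 27.1% of counts in DDGS and 16.9 to 25.1% in SBM libraries. Its share ran opposite to that of the block over the 10 libraries (Pearson r = -0.87, Spearman rho = -0.83). Both are parts of 1 total, so a gain in one lowers the other by arithmetic. With that row left out of the total, the block held 47.1 ± 1.7% in DDGS animals and 49.6 ± 2.3% in SBM animals (SD, n = 5 each), a difference of -2.52 points. The number of genes listed at 1, the lowest value in the table, was 5078 in DDGS replicate 3, which had the smallest block share, and 2524 in SBM replicate 2, which had the largest (r = -0.63, rho = -0.60, 10 libraries). The part of these measures in the difference was not tested. With the most abundant member left out of the block but kept in the total, the difference was -0.83 points. The most abundant member differed by -2.63 points between the groups, the second by -0.79 and the 12 further members together by -0.04. The most abundant and the second member are known by identifier only. Which ribosomal RNA was removed from these total RNA libraries is not given. Whether either member is a mitochondrial rRNA was not tested, so the share cannot be read as messenger RNA alone. In bulk muscle, a share of counts cannot tell the number of mitochondria-rich fibres from the mitochondrial RNA per fibre, and neither was tested.

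The members fell into 2 ranges of counts with a gap between them. In 14 members every library held at least 791 counts, and in the other 17 no library exceeded 445. The RefSeq list has 15 mitochondrial rRNA and protein-coding genes, against which the 14 were not matched. Of the 14, 11 were among the 100 rows with the highest mean count of the whole table. The 17 low-count members together held 468 to 1141 counts per library, at most 0.00604% of a library.

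**Figure D2:**
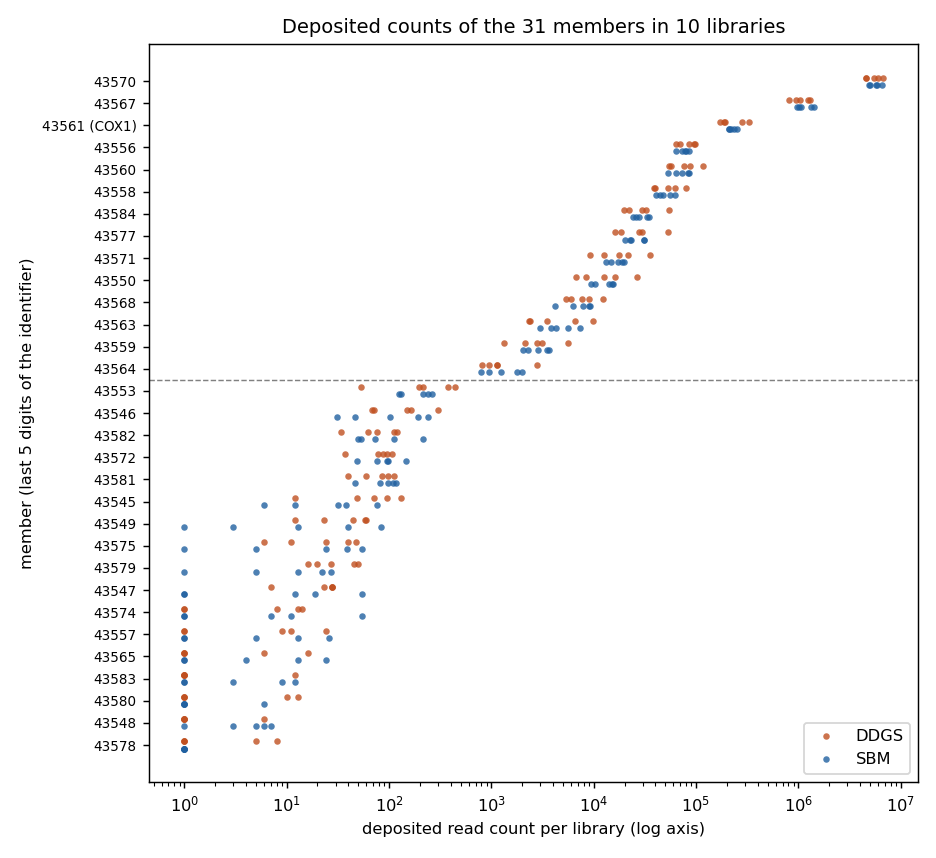
Each point is the deposited read count (x axis, log scale) of a member in 1 library, DDGS in orange and SBM in blue; members are ordered by mean count from the top (y axis) and the dashed line separates the 14 high-count members from the 17 low-count members. Counts run from 1, the lowest value listed, to 6786074 for ENSBTAG00000043570 in DDGS replicate 1.

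A single member made up most of the block. ENSBTAG00000043570, the row with the highest mean count in the table, took 27.2, 27.7, 26.6, 27.1 and 29.7% of library counts in DDGS replicates 1 to 5. Its shares in SBM replicates 1 to 5 were 26.0, 34.0, 32.0, 30.0 and 29.4%. The lowest value of all was thus an SBM animal, while 3 SBM animals stood above every DDGS animal. Within the block it held 77.3 ± 1.2% of counts in DDGS and 77.1 ± 3.0% in SBM animals (SD, n = 5 each), a difference far inside the spread.

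The second member, ENSBTAG00000043567, was the row with the rank of 3 in the table by mean count. Its shares of library counts were 5.23, 5.19, 4.68, 5.56 and 6.25% in DDGS replicates 1 to 5. They were 6.94, 7.23, 5.41, 5.37 and 5.88% in SBM replicates 1 to 5. SBM replicates 1 and 2 stood above all other animals, and the remaining SBM values lay among those of DDGS. This pair of members together held 92.6% of block counts on average.

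The balance within this pair varied between animals. The first member had 5.21, 5.33, 5.67, 4.88 and 4.76 times the counts of the second in DDGS replicates 1 to 5. In SBM replicates 1 to 5 the ratio was 3.74, 4.70, 5.92, 5.59 and 5.00. The SBM group held both the lowest and the highest ratio, in replicates 1 and 3, so the DDGS values lay inside the range of SBM. The mean was 5.17 ± 0.37 in DDGS and 4.99 ± 0.85 in SBM animals (SD, n = 5 each). A ratio within a library does not depend on scaling between libraries.

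COX1 had the next highest mean count in the block and the rank of 5 in the table. It took 1.33, 0.952, 1.08, 1.01 and 1.39% of library counts in DDGS replicates 1 to 5. The SBM shares were 1.24, 1.29, 1.17, 1.12 and 1.22%. The DDGS animals held both extremes and the SBM animals lay between them. COX1 made up 3.15% of block counts on average.

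Below COX1, ENSBTAG00000043556 had 0.386, 0.492, 0.403, 0.380 and 0.422% of library counts in DDGS replicates 1 to 5. In SBM it had 0.416, 0.441, 0.431, 0.375 and 0.372%. Its values varied by 1.53-fold from the lowest to the highest library after TMM scaling, edgeR's scaling between libraries, and the groups overlapped. ENSBTAG00000043560 stood at 0.465, 0.433, 0.315, 0.337 and 0.384% in DDGS and at 0.453, 0.425, 0.351, 0.369 and 0.313% in SBM replicates. Its lowest values, in DDGS replicate 3 and SBM replicate 5, came from different groups.

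ENSBTAG00000043558 held 0.320, 0.314, 0.228, 0.228 and 0.265% in DDGS and 0.326, 0.288, 0.246, 0.241 and 0.238% in SBM replicates 1 to 5. ENSBTAG00000043584 held 0.216, 0.162, 0.114, 0.130 and 0.147% in DDGS and 0.173, 0.178, 0.135, 0.141 and 0.153% in SBM replicates. ENSBTAG00000043577 held 0.213, 0.148, 0.0931, 0.108 and 0.137% in DDGS and 0.163, 0.160, 0.112, 0.119 and 0.133% in SBM replicates. In the latter 2 members DDGS replicate 1 was the highest and DDGS replicate 3 the lowest of all animals by share, so the SBM animals lay within the range of DDGS. The other 6 high-count members had mean counts from 1363 to 18020 and varied by 2.35-fold to 3.31-fold between libraries after TMM scaling.

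The 12 high-count members below the top pair varied together in part. Summed, they took 3.30, 2.76, 2.38, 2.39 and 3.004% of counts in DDGS replicates 1 to 5 and 3.05, 3.07, 2.65, 2.56 and 2.70% in SBM replicates 1 to 5. The highest and the lowest animals were both of the DDGS group. The means of 2.77 ± 0.40% in DDGS and 2.81 ± 0.24% in SBM animals (SD, n = 5 each) differed by much less than the SD. On the log2 CPM scale (counts relative to the TMM-scaled library total, prior count 2), DDGS replicate 1 was the highest library for 9 of the 14 members and DDGS replicate 4 the lowest for 7. The median of the 12 members stood 0.64 above their own means in DDGS replicate 1 and at -0.41 in DDGS replicate 4. The TMM factor, which lowers CPM where it is large, was 0.958 in the former and 1.14 in the latter library.

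**Figure D3:**
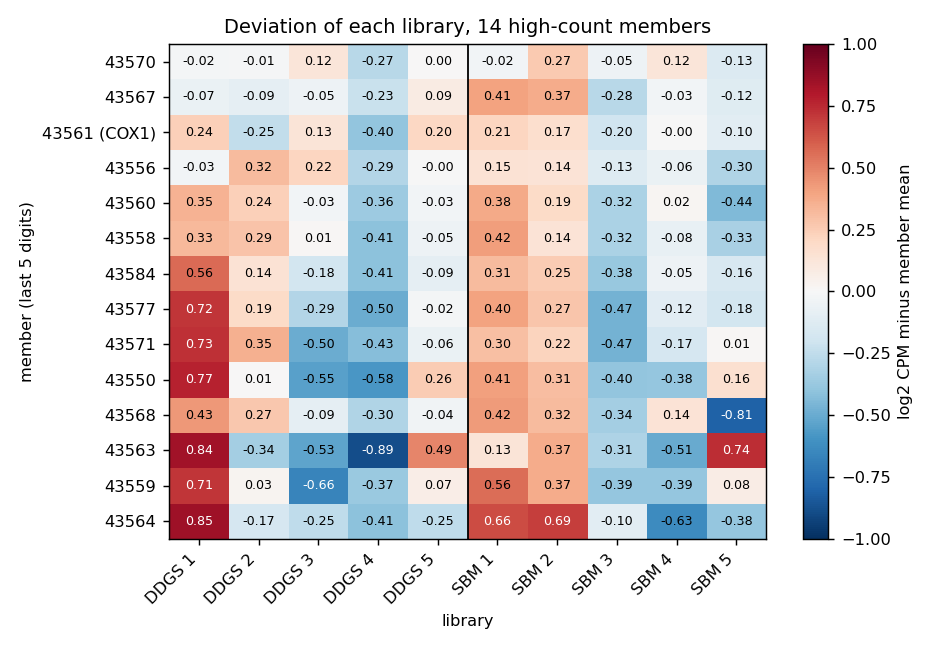
Each cell gives the log2 CPM of a member (rows, ordered by mean count) in a library (columns, DDGS left of the line, SBM right) minus that member's mean over the 10 libraries; red is above and blue below the mean. DDGS replicate 1 is above the mean in most rows, with 0.85 for ENSBTAG00000043564, and SBM replicate 5 holds both 0.74 for ENSBTAG00000043563 and -0.81 for ENSBTAG00000043568.

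Among the 14 members the median correlation of log2 CPM over the 10 libraries was 0.64 for the 91 pairs, with a range of -0.06 to 0.99. For the 702 other tested genes of at least the same mean CPM the median was 0.18. These points share libraries, depth and the scaling factors, so the values describe the pattern only. The closest pair was ENSBTAG00000043584 and ENSBTAG00000043577 (r = 0.99, rho = 0.99), followed by ENSBTAG00000043560 and ENSBTAG00000043558 (r = 0.98, rho = 0.94). The most abundant member, ENSBTAG00000043570, had the loosest relation to the rest, with a median r of 0.40 to the other 13. For COX1 this median was 0.62.

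The members ENSBTAG00000043563 and ENSBTAG00000043568 were only loosely related over the 10 libraries (r = 0.08, rho = 0.28), and lay furthest apart in SBM replicate 5. The counts of ENSBTAG00000043563 were 0.789, 0.390, 0.438, 0.396 and 0.859 times those of ENSBTAG00000043568 in DDGS replicates 1 to 5. The ratio was 0.484, 0.615, 0.606, 0.380 and 1.74 in SBM replicates 1 to 5. SBM replicate 5 was thus the only animal in which the first member exceeded the second. This pair was chosen after its values were seen.

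Spread between animals was smallest in the most abundant members. The SD of log2 CPM over the 10 libraries was 0.15 for ENSBTAG00000043570, 0.23 for ENSBTAG00000043567, 0.23 for COX1 and 0.21 for ENSBTAG00000043556. It reached 0.59 in ENSBTAG00000043563. The median over the 14 members was 0.35, against 0.27 for the 702 other genes of at least the same mean CPM. Of the 14, 10 had a larger SD than that median. Of those 702 genes, 79.8% had an SD below the median of the members. No test was made of this difference.

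**Figure D4:**
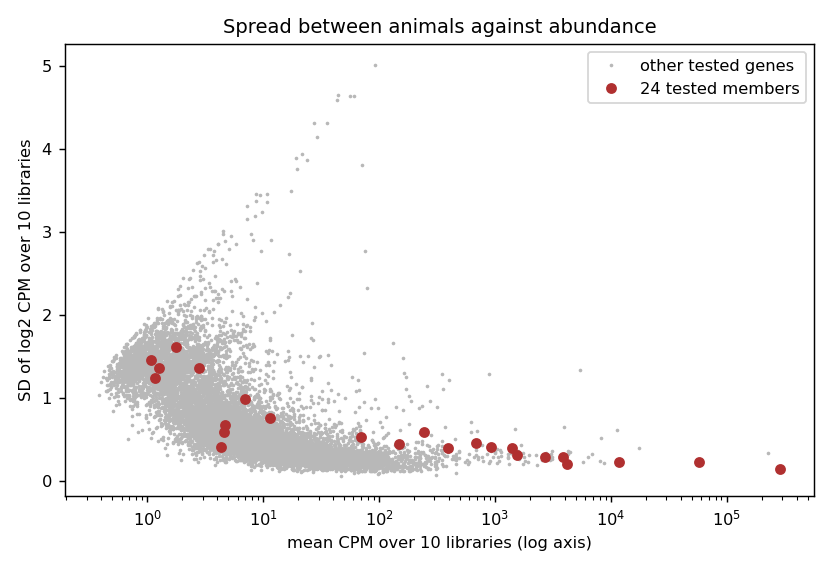
The SD of log2 CPM over the 10 libraries (y axis) is plotted against mean CPM (x axis, log scale) for the 24 tested members in red and for the other tested genes in grey. The members with low counts reach an SD of 1.62, and the most abundant member has the lowest SD of the members, 0.15.

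No member passed the test between maternal diets. The question was whether mitochondrial transcripts in the grown offspring differed with the diet of the nursing dam. edgeR's quasi-likelihood test was run on 12295 genes, of which 24 were members, and Benjamini-Hochberg adjustment covered all 12295. At an adjusted p under 0.05 it called 0 of the 24 members, and 0 genes of the whole table (0.0%). Unadjusted p was under 0.05 for 0 of the 24 members and for 3.74% of all genes tested. DESeq2 called 0 of 27 members and 15 genes in all (0.106%), while limma voom and edgeR's likelihood ratio test called 0 of 24 members and 0.0% of genes. Of the 24 members 0 had DDGS and SBM libraries that did not overlap in log2 CPM, against 0.781% of all genes tested.

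The fitted differences of the 14 high-count members were small on the log2 scale. They lay between -0.16 and 0.09, 8 above and 6 below 0. Their median was 0.02, and -0.01 over all genes tested. The median of the 14 was -0.03 when library totals alone set the scale. Single libraries moved it further and in both directions: it was -0.13 without DDGS replicate 1, 0.12 without DDGS replicate 4 and 0.11 without SBM replicate 1. The 702 other genes of at least the same mean CPM had 513 above and 189 below 0, with a median of 0.09.

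The size of a difference that the data leave possible was bounded for these 14. The unadjusted 95% interval of the fold change, from the fitted coefficient and its standard error, lay within 2-fold in either direction for all 14. The same held for 94.7% of the 702 other genes of at least that abundance. The interval lay within 1.5-fold for 11 of the 14, and for 73.4% of those 702 genes. ENSBTAG00000043570 had a log2 fold change of DDGS over SBM of -0.07 (SE 0.17, adjusted p by edgeR = 0.997). Its interval was -0.44 to 0.29, or at most 1.35-fold in either direction. COX1 had -0.01 (SE 0.17, adjusted p by edgeR = 0.9995), an interval of -0.38 to 0.35 and at most 1.30-fold.

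Among members with the smallest p in each direction and a mean of at least 1 CPM, ENSBTAG00000043567 had a log2 fold change of -0.16 (SE 0.18, adjusted p by edgeR = 0.997; interval -0.53 to 0.21). For it the exact two-sided permutation p of the single member was 0.373 over 252 assignments, for which the smallest possible value is 0.00794. The remaining members named by abundance had log2 fold changes of 0.09 for ENSBTAG00000043556, 0.06 for ENSBTAG00000043560, 0.06 for ENSBTAG00000043558, 0.03 for ENSBTAG00000043584 and 0.07 for ENSBTAG00000043577. Each of these 5 had a standard error between 0.16 and 0.22. Except for ENSBTAG00000043556, their signs, and that of COX1, changed when some single libraries were left out. The sign of ENSBTAG00000043556 changed only without both DDGS replicate 3 and SBM replicate 5, chosen after seeing the data.

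**Figure D5:**
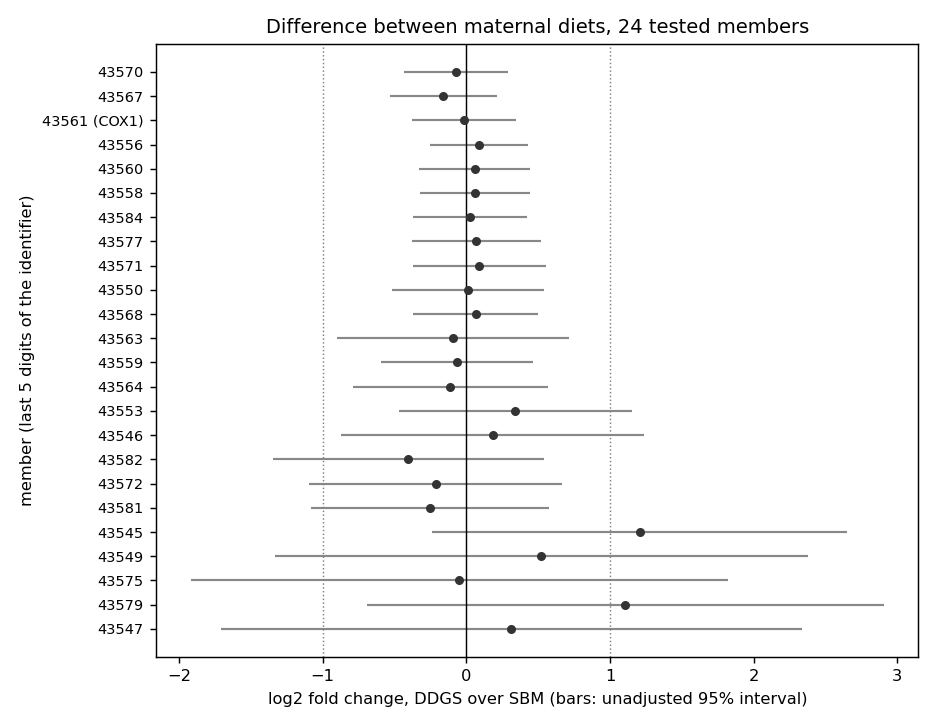
Points give the fitted log2 fold change of DDGS over SBM (x axis) for the 24 tested members (y axis, ordered by mean count from the top), bars the unadjusted 95% interval, and dotted lines mark 2-fold in either direction. All bars cross 0, those of the 14 high-count members stay within the dotted lines, and those of the 10 low-count members reach past at least one of them.

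The low-count members carried little information on the diets. Of the 17, 7 did not pass edgeR's expression filter, with mean counts of 2.1 to 11.1 and no value above 54, and 10 were tested. Values of 1 made up 25.9% of the 170 values of these 17 members and 21.8% of the whole table. A value of 1 need not be an observed fragment, since the table holds no 0. The main fit and the CPM values took it as listed, and an alternative fit set it to 0. A count of 0 would allow up to 3 counts by counting error alone, or 0.120 to 0.177 CPM in these libraries. For 0 of the 10 tested low-count members did the 95% interval lie within 2-fold, against 46.1% of all genes tested, whatever their abundance. Their SD of log2 CPM had a median of 1.12, against 0.76 for the 6957 other tested genes in the same range of mean CPM. Of those genes 70.1% had an SD below the median of the members, and no test was made of this difference.

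In the main edgeR fit ENSBTAG00000043545 had the smallest p of the 24 tested members, though not in every alternative. Its counts were 95, 12, 131, 72 and 49 in DDGS replicates 1 to 5 and 32, 12, 76, 6 and 38 in SBM replicates 1 to 5. The highest value was in DDGS replicate 3 and the lowest in SBM replicate 4, and the groups overlapped. The log2 fold change was 1.21 (SE 0.70, adjusted p by edgeR = 0.997, unadjusted p = 0.0977). Its interval of -0.24 to 2.65 includes no difference, and the exact two-sided permutation p was 0.167. The log2 fold change ran from 0.66 without DDGS replicate 3 to 1.71 without SBM replicate 3 when single libraries were left out. The unadjusted edgeR p was under 0.05 in 2 of these 10 fits, at 0.0390 without DDGS replicate 2 and at 0.0361 when SBM replicate 3 was omitted. No adjusted p of this member passed in any fit.

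ENSBTAG00000043579 came next among the members fitted higher in DDGS. It had 50, 16, 27, 20 and 45 counts in DDGS and 27, 22, 5, 13 and 1 in SBM replicates, the last of them listed at the floor of the table. Its log2 fold change was 1.11 (SE 0.87, adjusted p by edgeR = 0.997), and the exact two-sided permutation p was 0.0714. ENSBTAG00000043582, fitted lower in DDGS, had 112, 77, 34, 63 and 121 counts in DDGS and 73, 112, 50, 53 and 217 in SBM replicates. SBM replicate 5 alone stood above all other animals. The log2 fold change was -0.40 (SE 0.45, adjusted p by edgeR = 0.997), and 0.07 without that library.

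ENSBTAG00000043549 varied most between animals, with an SD of 1.62 on the log2 CPM scale. It had 58, 12, 59, 44 and 23 counts in DDGS replicates and 13, 83, 40, 1 and 3 in SBM replicates 1 to 5. The SBM group held both the highest and the lowest value. Its log2 fold change was 0.52 (SE 0.89, adjusted p by edgeR = 0.997).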

How the data were processed

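Total RNA of 10 muscle samples was sequenced from TruSeq Stranded Total RNA libraries, per the labels' protocols. Which ribosomal RNA was removed is not given in the sources used here. The authors deposited unscaled whole-number read counts per Ensembl identifier. HTSeq 0.5.3p7, TopHat2 2.0.9, Bowtie2, FastQC 0.10.1 and the UMD3.1 assembly appear in the submitters' processing notes. The annotation release, strand setting and treatment of reads matching several places are not given, so overlapping mitochondrial genes, opposite strands and nuclear copies could share or lose reads.

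The lists and members were chosen with earlier results of these data known. Groups came from sample titles. The main test was edgeR 4.0.16 (R 4.3.3), quasi-likelihood, TMM, default filter, robust, group only, adjusted over all 12295 genes. Intervals used the fitted standard error. Single members also had exact permutation tests. Alternatives covered scaling, filters, values of 1, a replicate block, omitted libraries, DESeq2 1.42.0 and limma 3.58.1. The fit was tested on simulated counts. Of 45 library pairs 0 were identical; the lowest spread was 11.4 times counting variance. Named members were the 8 largest by share, COX1, the 2 smallest p per direction and the SD extremes among tested members with a mean of at least 1 CPM. Lists of nuclear mitochondrial genes and cell type markers needed gene symbols and were not run.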

Additional observations from a re-analysis of the deposited data

Results flagged for a closer look

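A single animal lay far from the other 4 of its group by Dixon's criterion in 2 of 54 groups of 5 values, where chance gives about 2.7, and in 1 further value chosen after the data were seen. That value, the ratio of ENSBTAG00000043563 to ENSBTAG00000043568, was 1.74 in SBM replicate 5, against at most 0.615 in the other SBM animals. ENSBTAG00000043558 took 0.906% of block counts in SBM replicate 1, against 0.613 to 0.650% in the other SBM animals. ENSBTAG00000043582 took 0.00334% of block counts in SBM replicate 5, against at most 0.00130%.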

How the results depend on the processing

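No alternative called a member: the count of members past an adjusted p of 0.05 was 0 in every fit, that with the replicate number as a block included. The count over all genes was 0 to 1 without a single library, the 1 without DDGS replicate 4, 15 with DESeq2 and 0 in every other fit, the replicate block included. The labels do not say whether equal numbers pair animals. Libraries of equal number correlated at -0.0704 to 0.0694 in their deviations from the group means, which cannot decide it. The block share differed by -4.28 to -2.20 points without single libraries, -1.66 without both DDGS replicate 3 and SBM replicate 2 (chosen after seeing the data) and -0.83 without the most abundant member. Pairing same-numbered animals as a replicate block gives -3.45 by construction, since all 5 pairs are complete, and tests nothing.

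Of 261 values of the 12 named members under the alternatives, 24 had the other sign and 0 passed the adjusted threshold. ENSBTAG00000043570, ENSBTAG00000043567, ENSBTAG00000043545 and ENSBTAG00000043579 kept their sign in every alternative that tested them. ENSBTAG00000043584 was -0.019 with library totals alone and -0.0029 with DESeq2. Without single libraries the values were -0.079 to 0.068 for COX1 (ENSBTAG00000043561), -0.043 to 0.17 for ENSBTAG00000043560, -0.0165 to 0.19 for ENSBTAG00000043558, -0.14 to 0.11 for ENSBTAG00000043584, -0.15 to 0.19 for ENSBTAG00000043577 and -0.59 to 0.067 for ENSBTAG00000043582. Without both DDGS replicate 3 and SBM replicate 5, chosen after seeing the data, ENSBTAG00000043556 was -0.014 against 0.017 to 0.16 without single libraries, ENSBTAG00000043560 was -0.016, ENSBTAG00000043582 0.22 and ENSBTAG00000043549 -0.14, the last against 0.15 to 1.52 without single libraries. The cause was not tested. The 10 tested low-count members had standard errors of 0.39 to 0.97.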
